A study of Mus musculus with 16 samples.

Results

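The 8 genes examined encode the intermediate filament proteins of neurons and of neural progenitors and glia. They are the 3 subunits of the neurofilament triplet (Nefl, Nefm and Nefh), the other neuronal filament genes Ina and Prph, and the progenitor and glial filament genes Vim, Nes and Gfap. They were chosen by name, not by their values, and are 8 of the 46320 genes in the count table. All 8 passed the filter on low counts, which kept 19964 genes.

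Intermediate filament proteins assemble into ropes that give cells tensile strength. In neurons the light chain Nefl forms heteropolymers with Nefm, Nefh and Ina, which fill the axon and set its calibre, and Prph is a filament protein of peripheral axons and motoneurons. Vim and Nes are filament proteins of dividing neural progenitors, Vim is also made by fibroblasts and most other mesenchymal cells, and Gfap is the defining filament of astrocytes.

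RNA came from mouse motoneurons, taken from lumbar spinal cord at embryonic day 13 and enriched by panning on an antibody to the neurotrophin receptor p75NTR. The cells grew in microfluidic chambers, in which axons extend through microgrooves into a compartment separate from the cell bodies and dendrites, with CNTF in both compartments and BDNF only on the axonal side. The 4 groups were the somatodendritic and the axonal compartment of Hnrnpr-/- motoneurons (KO in the labels) and of +/+ motoneurons (WT), with 4 libraries each, described by the study as biological replicates. The knockout carries a CRISPR deletion of exons 1 to 5 of Hnrnpr in every cell, on a line backcrossed to C57Bl/6. Hnrnpr encodes hnRNP R, an RNA-binding protein of the nucleus and the axon. The age of the cultures at lysis and the sharing of litters between libraries are not given in the sources used here, so p-values measure the spread between these libraries.

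The libraries held 22024923 to 34864151 counts each. Preparation differed between the compartments, as axonal cDNA was amplified for 15 PCR cycles and somatodendritic cDNA for 10, and this difference cannot be told apart from the compartment. Hnrnpr itself had 4574 to 5913 counts in +/+ somatodendritic, 13 to 27 in Hnrnpr-/- somatodendritic, 3922 to 15608 in +/+ axonal and 18 to 38 in Hnrnpr-/- axonal libraries. Levels below are CPM, counts relative to the library total after scaling by TMM factors. The 8 filament genes are ranked by level only as RPKM, which also divides by the summed exon length. Of the 8 motoneuron markers examined, Ret reached 73.9 to 133 CPM in somatodendritic libraries, but the defining cholinergic gene Chat stayed between 0.657 and 1.31 CPM there and Mnx1 was at 0 in 15 of the 16 libraries. The summed motoneuron list ranged from 94.0 to 160 CPM in somatodendritic and from 3.901 to 76.6 CPM in axonal libraries, beside 4390 to 6486 and 504 to 3953 CPM for the 8 pan-neuronal markers. The libraries thus carried neuronal RNA with most motoneuron-defining transcripts low. In such bulk RNA, fewer cells of a type and less RNA per cell cannot be told apart. Values given below for axons are those of axonal libraries, which also held RNA of the non-neuronal marker lists examined below.

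The promoters of Vim and Nes are shown because these genes were higher in axonal libraries of both genotypes, and that of Ina because it was lower in both. The windows run from 250 bases before to 50 bases after the gene start and are from RefSeq on GRCm38.p6, a different build from that of the gene coordinates given below; 5 of the 8 genes matched this table. Capitals mark matches to short core promoter motifs, each searched on both strands, none of which overlap in these windows. The TATA box was searched as TATAAA, a site near which transcription starts in many regulated genes. The GC box, GGGCGG, is a site of Sp-family factors found in many promoters. The CCAAT box was searched by the letters of its name. The E box, CAGCTG, is a site of basic helix-loop-helix factors.
Ina, chr19:47014431-47014730, plus strand: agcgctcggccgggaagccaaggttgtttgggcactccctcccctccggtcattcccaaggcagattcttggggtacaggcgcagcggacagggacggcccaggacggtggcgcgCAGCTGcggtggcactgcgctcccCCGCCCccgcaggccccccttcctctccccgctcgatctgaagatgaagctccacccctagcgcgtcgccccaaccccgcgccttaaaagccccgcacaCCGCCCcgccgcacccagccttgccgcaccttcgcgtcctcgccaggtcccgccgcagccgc
Vim, chr2:13574061-13574360, plus strand: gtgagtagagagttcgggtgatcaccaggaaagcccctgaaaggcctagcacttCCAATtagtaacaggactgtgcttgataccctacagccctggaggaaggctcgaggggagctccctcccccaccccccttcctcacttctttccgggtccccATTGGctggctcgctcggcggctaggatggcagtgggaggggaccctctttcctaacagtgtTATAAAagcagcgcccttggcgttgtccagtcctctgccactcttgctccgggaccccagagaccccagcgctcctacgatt
Nes, chr3:87970843-87971142, plus strand: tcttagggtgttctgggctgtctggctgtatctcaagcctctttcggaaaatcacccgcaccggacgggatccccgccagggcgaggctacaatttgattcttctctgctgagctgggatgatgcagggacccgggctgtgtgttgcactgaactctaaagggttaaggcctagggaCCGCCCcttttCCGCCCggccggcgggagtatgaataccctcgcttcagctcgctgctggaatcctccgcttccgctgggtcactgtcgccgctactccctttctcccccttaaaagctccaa
The Vim window held 1 TATA box and 2 CCAAT boxes, and no GC box. The Ina window held 2 GC boxes and 1 E box, and the Nes window 2 GC boxes and none of the other motifs. Of 32851 windows of this length in the table, 13.6% held a TATA box, 35.7% a GC box, 37.4% a CCAAT box and 16.3% an E box. Vim and Nes, which were both higher in axonal libraries, shared none of the 4 motifs. Of the other matched genes, the Prph window held 1 TATA box and 1 GC box and the Gfap window none of the 4.

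The first comparison was between the compartments in +/+ motoneurons. Of the 8 filament genes, 4 were lower in axonal than in somatodendritic libraries (Nefl, Nefm, Nefh and Ina), 2 were higher (Vim and Nes), and Prph and Gfap did not pass an adjusted p of 0.05 in edgeR's quasi-likelihood test. Of all 19964 genes tested, 27.4% were lower and 30.1% higher in this comparison, so that a call in either direction was common. The median log2 fold change was -0.82 over the 8 genes and 0.07 over all genes. The same 6 genes were also those whose 4 axonal and 4 somatodendritic libraries did not overlap. The share of all genes without overlap is not given here, so this describes the libraries and adds no support to the calls.

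**Figure D1:**
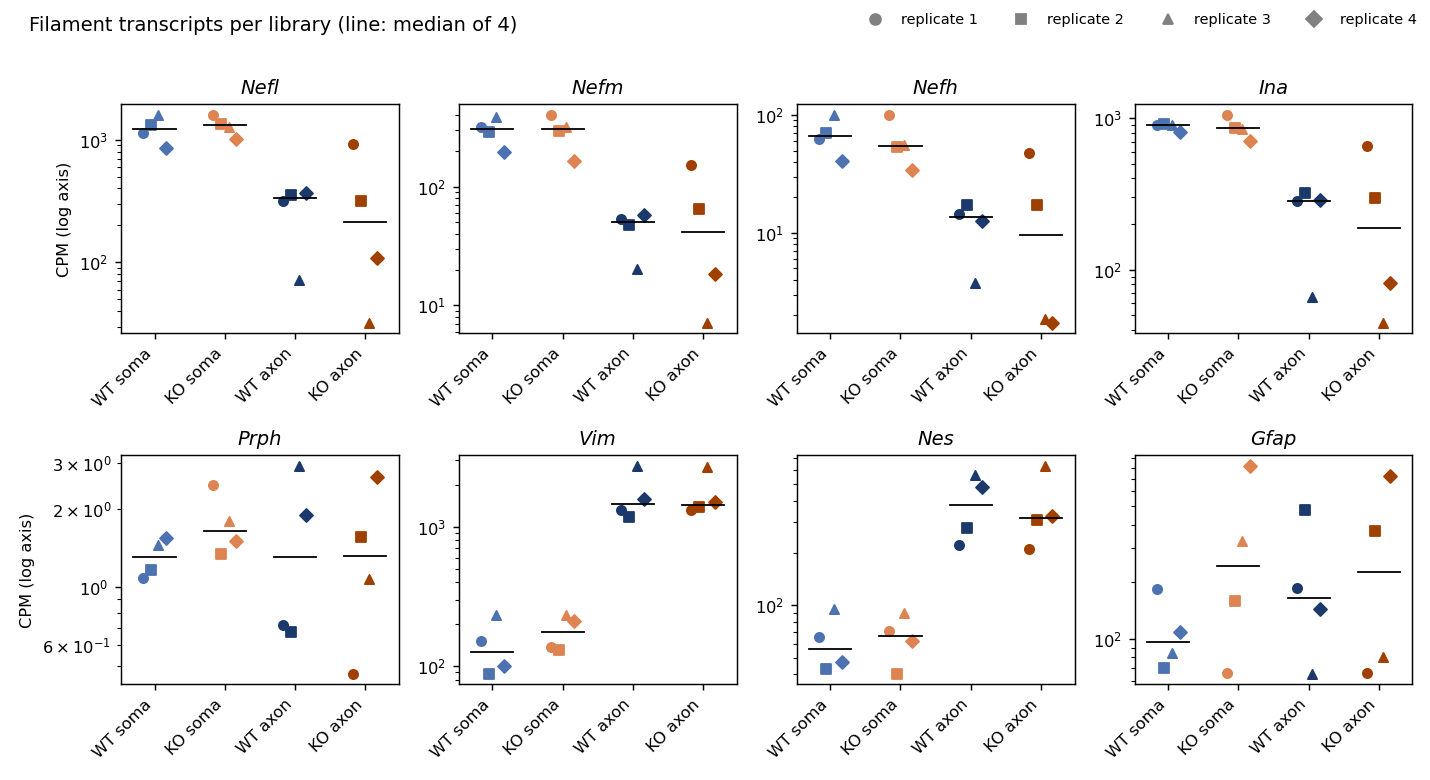
TMM-scaled CPM (log axis) of the 8 filament genes in each library, by group, with replicate numbers as marker shapes and the median of 4 libraries as a line. Nefl, Nefm, Nefh and Ina sit lower and Vim and Nes higher in axonal libraries, and for Nefl the axonal Hnrnpr-/- libraries spread widest of the groups, from 32.05 to 928 CPM.

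Nefl (GRCm39 chr14:68321312-68326544, plus strand) encodes the light chain on which the other neurofilament subunits assemble. Its level was 1129, 1326, 1592 and 857 CPM in +/+ somatodendritic replicates 1 to 4, and 315, 357, 72.5 and 371 CPM in the +/+ axonal ones. Hnrnpr-/- libraries had 1593, 1345, 1270 and 1007 CPM in the somatodendritic and 928, 317, 32.05 and 109 CPM in the axonal compartment. Somatodendritic libraries stayed within 1.86-fold of each other in +/+ and 1.58-fold in Hnrnpr-/- motoneurons, while axonal libraries differed by up to 5.11-fold and 29.0-fold. No axonal library reached the somatodendritic range of its genotype. In +/+ motoneurons Nefl was 4.399-fold lower in axons, and its log2 fold change was -2.14 ± 0.73 (SE, n = 4 per group) with an adjusted p of 0.0209 in edgeR.

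Nefm (GRCm39 chr14:68356994-68362453, minus strand), the medium chain, lies next to Nefl on chromosome 14. Its level was 319, 291, 386 and 197 CPM in +/+ somatodendritic and 53.7, 47.3, 20.2 and 57.7 CPM in +/+ axonal replicates 1 to 4. In Hnrnpr-/- motoneurons it was 404, 294, 322 and 166 CPM, and 153, 64.8, 7.08 and 18.3 CPM. Nefm had the largest decrease of the 8 genes in +/+ axons, at 6.66-fold, with a log2 fold change of -2.74 ± 0.69 and an adjusted p of 0.00368. The lncRNA gene A230070E04Rik overlaps it on the opposite strand and followed the same pattern, from 44.5 to 108 CPM in +/+ somatodendritic and from 5.52 to 16.1 CPM in +/+ axonal libraries. The library kit does not mark strand, so the reads of such a pair cannot be told apart. The same limit applies to Nefh, which overlaps Ap1b1 and Gm35321, to Ina, which overlaps Nt5c2, and to Gfap, which overlaps Gm34560, each on the opposite strand.

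Nefh (GRCm39 chr11:4888754-4898064, minus strand), the heavy chain, is the subunit that appears last as axons mature. Per exon length it was the lowest of the triplet in every group. Its level was 62.8, 70.5, 99.9 and 40.4 CPM in +/+ somatodendritic and 14.5, 17.3, 3.80 and 12.6 CPM in +/+ axonal replicates 1 to 4. The Hnrnpr-/- values were 100.3, 53.5, 55.7 and 34.5 CPM in the somatodendritic compartment and 48.0, 17.4, 1.86 and 1.72 CPM in axons. Nefh was 5.67-fold lower in +/+ axons (log2 fold change -2.50 ± 0.83, adjusted p = 0.0185). In Hnrnpr-/- motoneurons axonal replicate 1, at 48.0 CPM, lay within the somatodendritic range, and Nefh was the triplet gene that did not pass there.

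Ina (GRCm39 chr19:47003120-47013766, plus strand) encodes alpha-internexin, a filament protein made early in neuronal differentiation. It varied least of all 8 genes among +/+ somatodendritic libraries, at 898, 912, 907 and 809 CPM in replicates 1 to 4, and it was 283, 319, 66.2 and 287 CPM in +/+ axonal ones. Hnrnpr-/- libraries had 1052, 864, 854 and 704 CPM in the somatodendritic and 651, 296, 44.5 and 82.4 CPM in the axonal compartment. As for Nefl, every axonal library was below every somatodendritic library of its genotype. The decrease in +/+ axons was 3.69-fold, with a log2 fold change of -1.88 ± 0.64 and an adjusted p of 0.0198.

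These 4 decreases stood beside lower levels of neuronal RNA in axonal libraries generally. Of the 8 pan-neuronal markers, 7 were lower in +/+ axons and none was higher, with a median log2 fold change of -1.93. As a percentage of the summed pan-neuronal CPM, Nefl was 19.9 ± 4.33% (SD, n = 4) in +/+ somatodendritic and 14.8 ± 4.22% in +/+ axonal libraries, and Ina was 14.4 ± 0.960% and 12.7 ± 3.07%. The ranges of the compartments overlapped for both genes. For Nefm in +/+ motoneurons the percentages were 4.86 ± 1.19% and 2.58 ± 0.548%, with a lowest somatodendritic value of 3.27% and a highest axonal value of 2.96%, which do not overlap. In Hnrnpr-/- motoneurons the Nefm ranges overlapped, with a lowest somatodendritic value of 3.78% and a highest axonal value of 3.86%. In +/+ motoneurons Nefh was at 1.11 ± 0.356% and 0.647 ± 0.120%, with overlapping ranges. These percentages are a description with no test.

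The calls were also made without the axonal libraries lowest in neuronal markers. The 3 axonal libraries lowest in summed pan-neuronal CPM were Hnrnpr-/- replicate 3 (504), Hnrnpr-/- replicate 4 (747) and +/+ replicate 3 (766), and they were also the 3 lowest axonal libraries for Nefl, Nefm, Nefh, Ina and the motoneuron list. Without +/+ axonal replicate 3, Nefl, Nefh and Ina had log2 fold changes of -1.77, -2.16 and -1.53 but adjusted p of 0.0588, 0.0555 and 0.0558 in edgeR, leaving 3 genes that passed. These were the highest values over 27 alternative fits, in which the lowest were 0.000609 for Nefl, 0.00116 for Nefh and 0.000156 for Ina. The lowest values came from a fit without all 3 libraries, which by its construction removes the lowest axonal values of these genes and narrows the spread, so its adjusted p are no support for the calls. That fit kept 3 +/+ and 2 Hnrnpr-/- axonal libraries, and its +/+ log2 fold changes were -1.77 for Nefl, -2.45 for Nefm, -2.16 for Nefh and -1.53 for Ina.

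Prph (GRCm39 chr15:98951452-98956859, plus strand), the filament gene of peripheral axons, was the lowest of the 8 genes per exon length in every group. It had 16 to 90 counts per library, or 1.09, 1.17, 1.45 and 1.55 CPM in +/+ somatodendritic and 0.715, 0.676, 2.92 and 1.90 CPM in +/+ axonal replicates 1 to 4. The Hnrnpr-/- levels were 2.47, 1.34, 1.80 and 1.502 CPM, and 0.465, 1.55, 1.08 and 2.65 CPM in axons. The compartments overlapped in both genotypes. The log2 fold change in +/+ motoneurons was 0.24 ± 0.52 (adjusted p = 0.710), with a 95% interval from -0.86 to 1.35. The axonal library with the highest Prph, +/+ replicate 3, was among the lowest for the 4 other neuronal filament genes, and without it the log2 fold change was -0.21.

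Vim (GRCm39 chr2:13579122-13587637, plus strand) encodes vimentin. It had the largest difference of the 8 genes, with 152, 87.7, 234 and 101 CPM in +/+ somatodendritic and 1310, 1178, 2739 and 1583 CPM in +/+ axonal replicates 1 to 4. Hnrnpr-/- libraries had 137, 130, 233 and 212 CPM in the somatodendritic compartment and 1323, 1390, 2696 and 1499 CPM in axons. The groups were far apart, since the lowest axonal library was at 1178 CPM and the highest somatodendritic one at 234 CPM. Vim was 11.8-fold higher in +/+ axonal libraries, with a log2 fold change of 3.57 ± 0.39 and an adjusted p of 2.47e-05.

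Nes (GRCm39 chr3:87878400-87887758, plus strand) encodes nestin, which copolymerises with vimentin. Its levels were 65.4, 43.1, 95.5 and 46.9 CPM in +/+ somatodendritic and 222, 279, 562 and 480 CPM in +/+ axonal replicates 1 to 4. The corresponding Hnrnpr-/- values were 70.9, 40.2, 90.3 and 62.5 CPM, and 211, 309, 634 and 324 CPM. As with Vim, no axonal library overlapped the somatodendritic ones. Nes was 6.15-fold higher in +/+ axonal libraries, with a log2 fold change of 2.62 ± 0.40 and an adjusted p of 0.000140.

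Gfap (GRCm39 chr11:102778162-102791368, minus strand), the astrocyte filament gene, followed neither pattern. It was at 184, 70.4, 84.5 and 109 CPM in +/+ somatodendritic and at 185, 481, 65.4 and 144 CPM in +/+ axonal replicates 1 to 4. In Hnrnpr-/- motoneurons it was at 66.3, 158, 327 and 817 CPM and at 65.8, 371, 80.4 and 719 CPM. The spread within a group reached 12.3-fold, in Hnrnpr-/- somatodendritic libraries, and all groups overlapped. The log2 fold change in +/+ motoneurons was 0.97 ± 0.82 (adjusted p = 0.327), with a 95% interval from -0.78 to 2.72, and without axonal replicate 2, the library at 481 CPM, it was 0.23.

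Marker lists of other cell types were examined beside Vim, Nes and Gfap. Among 12 markers of astrocytes or radial glia, 8 were higher in +/+ axonal libraries and none was lower, and their summed level was 1513 to 2347 CPM in the +/+ somatodendritic and 3131 to 6354 CPM in the +/+ axonal group. Among 12 markers of fibroblasts, pericytes or meningeal cells, 5 were higher and none lower, with sums of 82.0 to 768 CPM and 1347 to 11372 CPM, while 30.1% of all genes were higher. Of 9 tested markers of oligodendroglia or Schwann cells 1 was higher, and of 8 microglial markers none passed. In Hnrnpr-/- motoneurons 5 of the 12 astrocyte or radial glia markers and 4 of the 12 fibroblast markers were higher and none lower, beside 27.5% of all genes higher. The sums there were 1774 to 2444 and 3080 to 5266 CPM for the astrocyte or radial glia list, and 133 to 1407 and 2255 to 10278 CPM for the fibroblast list. No marker of either list was at 0 throughout a group. The axonal libraries with the highest Vim, +/+ replicate 3 (2739 CPM) and Hnrnpr-/- replicate 3 (2696 CPM), were also the highest for the fibroblast sum, at 11372 and 10278 CPM, of which Acta2, the smooth muscle actin of contractile cells, made up 9784 and 8734 CPM. Without Acta2 the sum was highest in axonal replicate 4 of each genotype, at 3103 and 2816 CPM against 1588 and 1544 CPM in replicate 3, and its ranges in the 2 compartments overlapped in each genotype. Of the 12 markers, 2 were highest in axonal replicate 3 in each genotype, and 9 in +/+ and 7 in Hnrnpr-/- motoneurons were highest in replicate 4. The match with Vim was therefore not shared by most of the list. The libraries highest in Gfap, replicate 4 of both Hnrnpr-/- compartments, were those highest in the microglial list, at 131 CPM in the somatodendritic and 391 CPM in the axonal compartment. In +/+ motoneurons Gfap was highest in somatodendritic replicate 1 and axonal replicate 2, which had the highest astrocyte or radial glia sums of their groups (2347 and 6354 CPM). The microglial list was highest there in replicate 1 of both compartments, at 46.9 and 116 CPM. The part of these cells in the levels of Vim, Nes and Gfap was not tested.

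**Figure D2:**
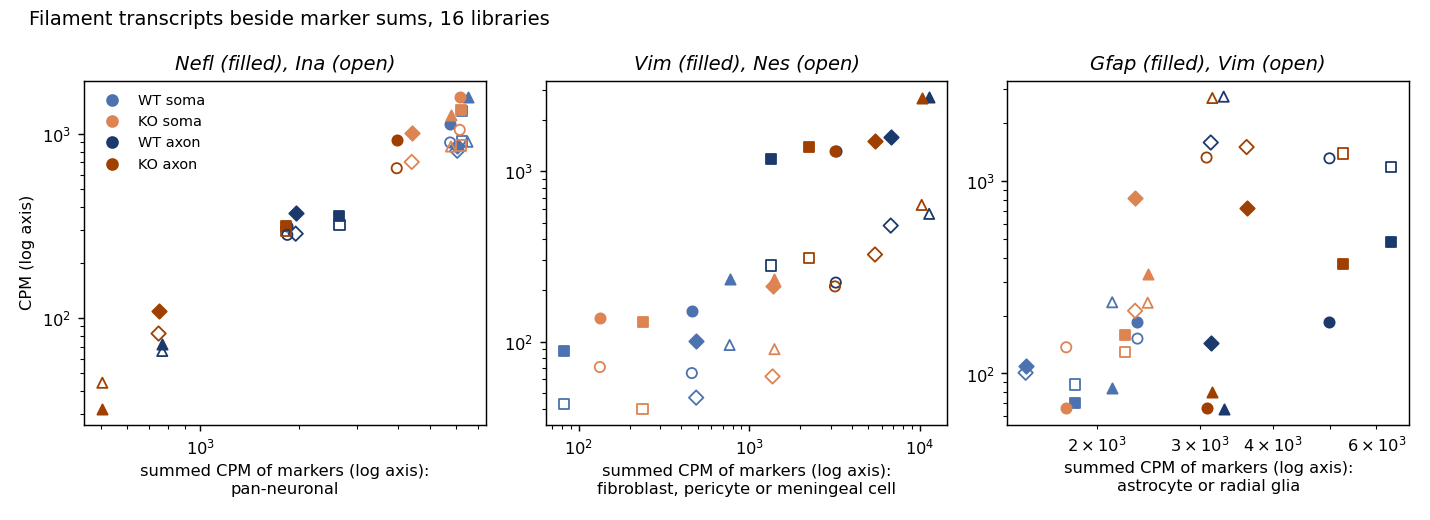
CPM of filament genes (log axis) against the summed CPM of a marker list (log axis) in 16 libraries, filled and open symbols giving the 2 genes named above each panel, colours the group and marker shapes the replicate number. Nefl and Ina are lowest where the pan-neuronal sum is lowest (504 CPM), Vim is highest in the libraries with the highest fibroblast sum (11372 and 10278 CPM, of which Acta2 is 9784 and 8734 CPM), and Gfap is highest in replicate 4 of the 2 Hnrnpr-/- compartments (817 and 719 CPM), where the astrocyte or radial glia sum is not the highest of its group.

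Per exon length, the order of the 8 genes differed between the compartments. In +/+ somatodendritic libraries Nefl was first at 363 ± 92.0 RPKM (SD, n = 4), followed by Ina at 271 ± 14.9, Nefm at 92.3 ± 24.2, Vim at 78.3 ± 36.3, Nefh at 17.1 ± 6.16, Gfap at 15.1 ± 6.84, Nes at 9.51 ± 3.63 and Prph at 0.559 ± 0.0939 RPKM. Nefl overlapped with Ina, Nefm with Vim, Nefh with Gfap, and Gfap with Nes, whereas the other neighbours in this order did not overlap. In +/+ axonal libraries Vim was first at 928 ± 388 RPKM and overlapped with no other gene. Nefl followed at 82.5 ± 41.3, Ina at 73.3 ± 35.7, Nes at 58.5 ± 24.5, Gfap at 29.5 ± 24.4 and Nefm at 13.9 ± 5.23 RPKM, each overlapping with the next, and the Gfap mean was 17.7 RPKM without axonal replicate 2. Nefm did not overlap with Nefh at 3.02 ± 1.46 RPKM, which was followed by Prph at 0.661 ± 0.458 RPKM. In Hnrnpr-/- somatodendritic libraries Nefl, at 386 ± 71.3 RPKM, and Ina, at 267 ± 43.8, were again first. Vim was first in Hnrnpr-/- axons at 942 ± 354 RPKM, and the order behind it depended on 1 library. Nefl averaged 103 ± 120 and Nes 56.0 ± 27.8 RPKM over the 4 libraries, but 45.2 and 64.1 RPKM without axonal replicate 1, and Nes was above Nefl in replicates 3 and 4.

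Summed per length over the 8 genes, the 5 neuronal genes (Nefl, Nefm, Nefh, Ina and Prph) made up 88.0 ± 3.20% (SD, n = 4) of filament RNA in +/+ somatodendritic and 16.3 ± 9.003% in +/+ axonal libraries. In Hnrnpr-/- motoneurons these shares were 82.7 ± 9.06% and 17.2 ± 17.7%. Somatodendritic libraries ranged from 71.0 to 92.4% over both genotypes and axonal ones from 1.64 to 41.2%. Vim alone made up 55.6 to 91.7% in the 8 axonal libraries. The 3 libraries lowest in pan-neuronal markers had neuronal shares of 1.64, 6.30 and 3.07%, and the highest axonal share, 41.2%, was in Hnrnpr-/- replicate 1, which also had the highest pan-neuronal sum of the axonal libraries at 3953 CPM. Without this library the mean share in Hnrnpr-/- axons was 9.22%.

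**Figure D3:**
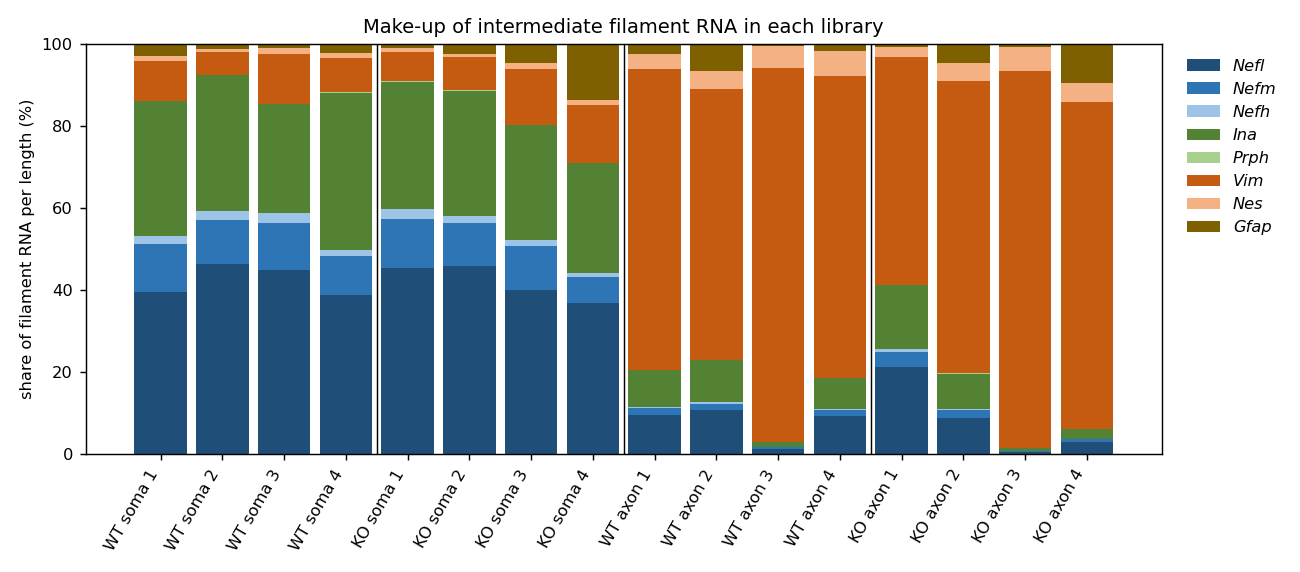
Share of each gene in the filament RNA per exon length (%) in each of the 16 libraries, as stacked bars. The 5 neuronal genes make up 71.0 to 92.4% of somatodendritic and 1.64 to 41.2% of axonal bars, and Vim makes up most of every axonal bar.

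Within the triplet the proportions were closer between the compartments. Nefl was 76.9 ± 1.81% of triplet RNA per length in +/+ somatodendritic and 81.4 ± 4.52% in +/+ axonal libraries, Nefm was 19.6 ± 1.73% and 15.5 ± 4.41%, and Nefh was 3.55 ± 0.391% and 3.11 ± 0.475%. The Hnrnpr-/- shares were 78.8 ± 3.30% and 81.0 ± 2.74% for Nefl, 18.2 ± 2.78% and 15.97 ± 1.84% for Nefm, and 2.99 ± 0.721% and 3.06 ± 1.29% for Nefh. The ranges of the compartments overlapped for each of the 3 genes in both genotypes. In +/+ motoneurons the overlap of Nefl and Nefm came from axonal replicate 3, at 74.8% and 21.9%, one of the libraries lowest in pan-neuronal markers. The other 3 +/+ axonal libraries were at 82.1 to 84.8% for Nefl and 11.8 to 14.7% for Nefm, whereas somatodendritic libraries were at 74.5 to 78.5% and at least 17.99%, respectively.

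The same comparison was made in Hnrnpr-/- motoneurons. In the main fit, which does not pair the replicate numbers, Nefl, Nefm and Ina were lower and Vim and Nes higher in axons. Nefh, Prph and Gfap did not pass there, beside 26.8% of all genes lower and 27.5% higher. Nefl was 3.76-fold lower (log2 fold change -1.91 ± 0.72, adjusted p = 0.0360), Nefm 4.88-fold lower (-2.29 ± 0.68, adjusted p = 0.0104) and Ina 3.23-fold lower (-1.69 ± 0.63, adjusted p = 0.0336). Vim was 9.72-fold higher, with a log2 fold change of 3.28 ± 0.39 and an adjusted p of 3.94e-05, and Nes 5.60-fold higher, with 2.49 ± 0.40 and 0.000234. Nefh had a log2 fold change of -1.82 ± 0.81 (adjusted p = 0.0698), Prph of -0.31 ± 0.52 and Gfap of -0.15 ± 0.81. Of the pan-neuronal markers, 6 of 8 were lower.

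The calls of Nefl and Ina in Hnrnpr-/- motoneurons were close to the threshold. Both missed the threshold without somatodendritic replicate 1, 2 or 3 and without axonal replicate 2, 3 or 4, leaving 3 genes that passed each time, and also in a fit of these 2 groups only, with adjusted p of 0.0884 and 0.0832. In these fits the log2 fold change lay between -1.93 and -1.49 for Nefl and between -1.75 and -1.30 for Ina. Over 27 alternative fits the adjusted p ranged from 0.00142 to 0.0915 for Nefl, from 0.00185 to 0.0852 for Ina and from 0.00378 to 0.190 for Nefh. With the replicate number paired across compartments, as a replicate block within each genotype, Nefh passed, with a log2 fold change of -2.90 and an adjusted p of 0.0102, and so did Nefl (-2.79, adjusted p = 0.0124) and Ina (-2.38, adjusted p = 0.00935). Without axonal replicate 1 Nefh also passed, with a log2 fold change of -3.13 and an adjusted p of 0.00378, beside values of -3.10 for Nefl, -3.31 for Nefm and -2.63 for Ina. Without the 3 axonal libraries lowest in pan-neuronal markers, with 2 Hnrnpr-/- axonal libraries left, the Hnrnpr-/- log2 fold changes were -1.03 for Nefl, -1.41 for Nefm, -0.86 for Nefh and -0.84 for Ina, against 2.97 for Vim and 2.02 for Nes.

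Set side by side by replicate number, the axonal minus somatodendritic difference in log2 CPM was negative for Nefl, Nefm, Nefh and Ina and positive for Vim and Nes in all 8 pairs. For Nefl it was -1.84, -1.89, -4.46 and -1.21 in +/+ and -0.78, -2.08, -5.31 and -3.21 in Hnrnpr-/- pairs 1 to 4. For Vim it was 3.11, 3.75, 3.55 and 3.97, and 3.27, 3.42, 3.53 and 2.82. The Vim differences thus spanned 2.82 to 3.97 over all 8 pairs and the Nefl differences -5.31 to -0.78. Gfap and Prph had differences of both signs in each genotype.

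**Figure D4:**
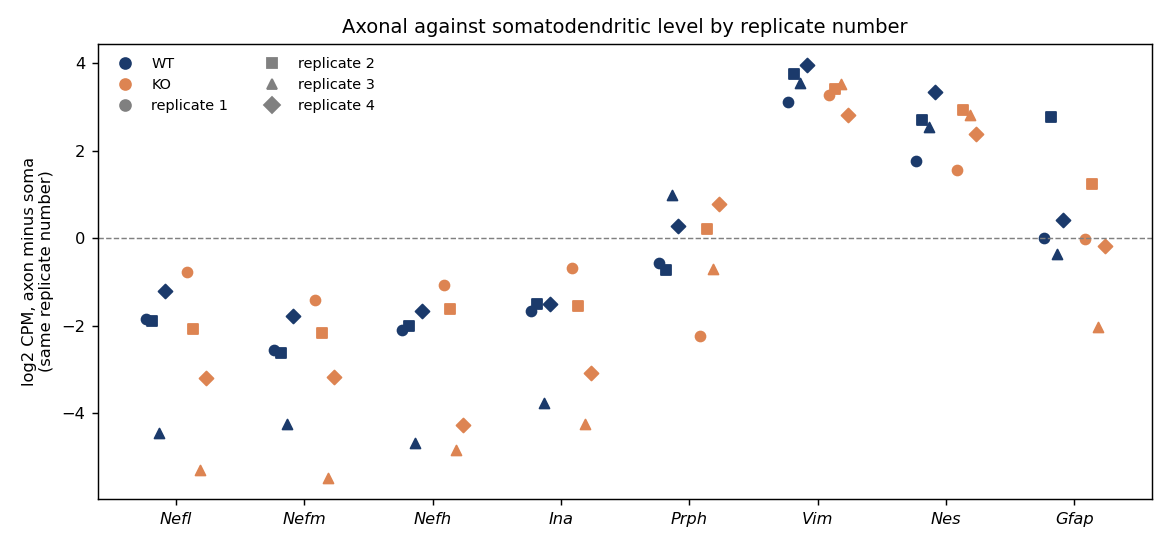
Difference in log2 CPM between the axonal and the somatodendritic library of the same replicate number, for each gene and genotype (colours) with replicate numbers as marker shapes. Nefl, Nefm, Nefh and Ina lie below 0 and Vim and Nes above 0 in all 8 pairs, and pair 3 of each genotype is lowest for Nefl, at -4.46 and -5.31.

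Comparing Hnrnpr-/- with +/+ motoneurons asks whether loss of hnRNP R, which binds many neuronal mRNAs, altered their level in each compartment. None of the 8 filament genes passed in the somatodendritic compartment, in axons or for the difference between compartments in the genotype effect, and none had an unadjusted p under 0.05 in any of the 3 tests. DESeq2 also called none of them, with its default settings and with the shrinkage used in the study. Over all genes edgeR called 1 gene (0.00501%) in the somatodendritic compartment, Hnrnpr itself, 2 (0.01%) in axons, Hnrnpr and Gm13373, and 0 (0%) for the difference between compartments, where 265 genes had an unadjusted p under 0.05 and DESeq2 called 1 gene, Gm13373, with its default settings and 0 with shrinkage. The groups overlapped for all 8 genes in both compartments, a description given without the share of all genes that overlapped.

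In the somatodendritic compartment the log2 fold changes of Hnrnpr-/- against +/+ were 0.09 for Nefl, -0.01 for Nefm, -0.16 for Nefh, -0.02 for Ina, 0.44 for Prph, 0.31 for Vim and 0.07 for Nes. In the joint fit the 95% intervals were wide, from -1.33 to 1.29 for Ina, since the axonal libraries share its estimate of the spread. A fit of the 8 somatodendritic libraries only gave intervals from -0.29 to 0.26 for Ina, from -0.33 to 0.52 for Nefl, from -0.57 to 0.58 for Nefm and from -0.88 to 0.57 for Nefh. Gfap had the largest difference, 3.05-fold higher with a log2 fold change of 1.61 ± 0.83 and an unadjusted p of 0.0724 (adjusted p = 1.00) in edgeR. The fit of somatodendritic libraries only gave 1.62 ± 0.62, an unadjusted p of 0.0251 and an adjusted p of 0.999. Without Hnrnpr-/- somatodendritic replicate 4, the library at 817 CPM, the log2 fold change of Gfap was 0.71. Hnrnpr-/- replicate 1, at 66.3 CPM, was below all +/+ libraries for Gfap, and the microglial list ranged from 11.4 to 131 CPM in this group and from 11.45 to 46.9 CPM in +/+ motoneurons.

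Among axonal libraries the genotype log2 fold changes were 0.32 for Nefl, 0.44 for Nefm, 0.52 for Nefh, 0.17 for Ina, -0.11 for Prph, 0.02 for Vim, -0.06 for Nes and 0.50 for Gfap. The 95% intervals were -1.18 to 1.81 for Nefl, -0.94 to 1.82 for Nefm, -1.17 to 2.21 for Nefh and -0.73 to 0.77 for Vim. Without Hnrnpr-/- axonal replicate 1, the library richest in neuronal RNA, the log2 fold changes of Nefl, Nefm, Nefh and Ina turned to -0.87, -0.57, -0.78 and -0.76, with adjusted p from 0.780 to 0.859. The direction of the axonal genotype difference thus turned when 1 library was left out, for each of these 4 genes. Without the 3 axonal libraries lowest in pan-neuronal markers the values were instead 0.85 for Nefl, 1.04 for Nefm, 1.15 for Nefh and 0.68 for Ina, from 2 Hnrnpr-/- and 3 +/+ axonal libraries, each with an adjusted p of 0.678. For the difference between compartments in the genotype effect, the values were 0.23 for Nefl, 0.45 for Nefm, 0.68 for Nefh and -1.11 for Gfap, with an interval from -3.57 to 1.35 for Gfap. With 1 library left out the Gfap value ranged from -1.95, without Hnrnpr-/- axonal replicate 4, to -0.22, without Hnrnpr-/- somatodendritic replicate 4.

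**Figure D5:**
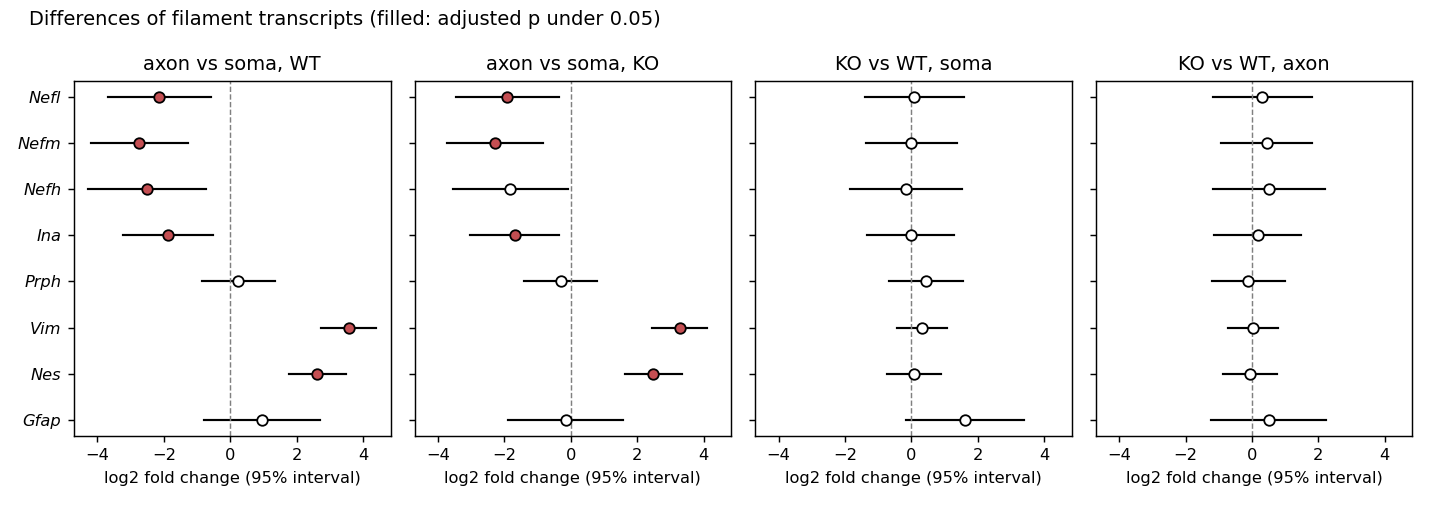
Log2 fold changes of the 8 filament genes with 95% intervals from edgeR in 4 comparisons of 4 libraries each, filled circles marking an adjusted p under 0.05. In the compartment comparisons 6 genes in +/+ and 5 in Hnrnpr-/- motoneurons are filled, and none is filled in the genotype comparisons.

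Genes that act on these filaments were examined in 6 lists, 58 genes in all, of which 55 were tested. In +/+ motoneurons 13 were higher and 27 lower in axons, beside 30.1% and 27.4% of all genes, and their median log2 fold change was -0.55. Of 12 other intermediate filament genes tested, 4 were higher and 1 lower. Krt19, a keratin of epithelia, averaged 0.333 ± 0.343 CPM (SD) in somatodendritic and 11.3 ± 10.98 CPM in axonal libraries. It was higher in the axonal ones by 5.05 ± 1.41 on the log2 scale (adjusted p = 0.00701 in edgeR). Des, the muscle filament gene (log2 fold change 4.97 ± 1.34), Lmna, the A-type nuclear lamin (2.88 ± 0.48), and Krt10 (1.52 ± 0.47) rose with it. Synm, which encodes a large filament protein that joins vimentin polymers, fell by 1.64 on the log2 scale. Des, Lmna and Krt10 fall outside the rule for named genes and were picked once their values were known.

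Of the 8 cross-linkers that tie filaments to other parts of the cytoskeleton, 6 were lower and 1 higher. Map2, a microtubule protein of dendrites, averaged 1071 ± 108 and 250.1 ± 187 CPM (log2 fold change -2.10 ± 0.56, adjusted p = 0.00551). Plec, the plakin plectin that binds vimentin, was 42.8 ± 11.1 and 184 ± 127 CPM (2.10 ± 0.47, adjusted p = 0.00169). Of the 8 transport genes, 7 were lower, with Klc2, a kinesin light chain, at 65.2 ± 4.81 and 7.57 ± 1.46 CPM (-3.11 ± 0.32, adjusted p = 2.10e-05). Kif5b, the kinesin heavy chain found in most cells, was the transport gene that was higher, at 115 ± 8.19 and 210 ± 38.4 CPM (0.86 ± 0.16, adjusted p = 0.000430).

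Of 14 kinases and phosphatases of filament proteins, 9 were lower and 3 higher. Cdk5r1, the p35 activator of Cdk5, went from 91.2 ± 7.28 to 8.09 ± 4.42 CPM (log2 fold change -3.49 ± 0.63, adjusted p = 0.000397), whereas Rock1, a serine/threonine kinase of the cytoskeleton, went from 17.7 ± 3.46 to 57.5 ± 19.6 CPM (1.70 ± 0.26, adjusted p = 0.000125). Of 6 genes of filament turnover, 3 were lower and 2 higher, between -1.60 ± 0.30 for Trim2, a ubiquitin ligase for Nefl, and 0.66 ± 0.21 for Capn2, a calpain protease. Of 7 genes for proteins that bind neurofilament RNA, 2 were higher, and the highest was Sod1, with a log2 fold change of 0.60 ± 0.19. For the genotype, Hnrnpr itself was the single gene of the 6 lists that passed, in both compartments.

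The genes whose profile over the 16 libraries was most like that of a filament gene were ranked by the root mean square difference of log2 CPM, each profile centred on its mean, among 11227 genes of at least 10 CPM. For Nefl these were Mab21l2 (0.21), Gabra5 (0.22) and Eno2 (0.23), the last being neuron-specific enolase, beside a median of 1.66 over all candidates. For Nefm they were its antisense neighbour A230070E04Rik (0.15), Vamp1 (0.24) and Lhx5 (0.30), and for Nefh Lhx5 (0.38), Gad1 (0.38) and Pax8 (0.40). The reads of Nefm and A230070E04Rik cannot be told apart, so the rank of A230070E04Rik is no sign of a separate gene with the same pattern. Lhx5 and Pax8 are transcription factors of spinal interneurons, and Gad1 encodes a GABA-synthesising enzyme. Ina was followed by Sh3gl2 (0.13), Dmtn (0.14) and Celf6 (0.15), the closest matches of the 8 genes.

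Vim was most like Cdc42ep1 (0.21), Ccnd2 (0.24) and Palld (0.25), beside a median of 1.85, and Nes most like Mbnl2 (0.24), Ctnna1 (0.27) and Cnn3 (0.29). Ccnd2 is a cyclin of proliferating progenitors, and Palld, Ctnna1 and Cnn3 encode proteins of the actin cytoskeleton and its junctions. Gfap was most like Trf (0.54), Apoe (0.62) and Aqp4 (0.69), and Aqp4 is the water channel of astrocytes. Prph had no close match, since Noc3l, Ptpn23 and Szrd1 were at 0.48 to 0.51 beside its own SD of 0.66. These values are a description over 16 libraries that share the compartment difference, with no test.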

How the data were processed

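RNA of the somatodendritic and the axonal compartment of Hnrnpr-/- and +/+ motoneurons was measured in 16 libraries, 4 per group, grouped by their titles. The authors trimmed reads with Cutadapt, aligned them with STAR 2.7.2b to GRCm39 and counted them on exons with featureCounts 1.6.4 in the reverse-strand setting, dividing reads with several alignments or overlapping genes. The deposited values are these expected counts, fractional and without normalization, for 46320 genes. The exon lengths are those of the deposited table.

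Counts were rounded. In R 4.3.3, edgeR 4.0.16 filtered genes by group (19964 kept), scaled by TMM and fitted a quasi-likelihood model with 1 mean per group to all 16 libraries. P-values are two-sided and adjusted by Benjamini-Hochberg over the 19964 genes, and 0.05 was the threshold. Alternatives were RLE factors, library totals, other filters, fractional counts, DESeq2 1.42.0, the groups compared only, a replicate block and each library left out. A block within each genotype and a fit without the 3 axonal libraries lowest in pan-neuronal markers were added after seeing the data. The scripts were tested on simulated data.

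Replicate numbers from the titles paired the compartments within a genotype: deviations from group means correlated at 0.105 to 0.508 in 8 of 8 same-numbered pairs, each library correlating best with its own number, against -0.435 to 0.112 for other pairs. Between genotypes the same correlation was -0.0458 to 0.677. Depth was 22024923 to 34864151 counts, and counting error weighs most on Prph and on Nefh in Hnrnpr-/- axonal replicates 3 and 4. A total of 0 library columns was left unused.

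Genes named are the 8 filament genes, the highest and lowest called gene of each related list, genes called for the genotype, the 3 nearest profiles per gene, and Hnrnpr, except 1 gene that is not reported here. The genes and lists were chosen with earlier results of these data known.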

Additional observations from a re-analysis of the deposited data

Results flagged for a closer look

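In 48 groups of 4 libraries, over levels and shares of the 8 genes, 4 groups held a library far from the others by Dixon's test at the 95% level, where chance flags about 1 in 20 groups. Ina in +/+ somatodendritic libraries had its lowest value, 809 CPM, in replicate 4, with the others between 898 and 912. In +/+ axons its lowest value, 66.2 CPM, was in replicate 3, one of the 3 axonal libraries lowest in pan-neuronal markers. Vim in Hnrnpr-/- axons had its highest value, 2696 CPM, in replicate 3, another of those 3. The Nefh share of the triplet in Hnrnpr-/- axons was lowest in replicate 4, at 1.13%, from 52 counts of Nefh.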

How the results depend on the processing

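In the compartment comparisons Nefm, Vim and Nes passed the threshold under every alternative in both genotypes. With the block within each genotype, the +/+ log2 fold changes were -2.28 for Nefl, -2.55 for Nefh and -2.07 for Ina. Their adjusted p in edgeR were 0.0225, 0.0130 and 0.0134. Leaving out 1 library gave 3 to 6 genes that passed in +/+ and 3 to 6 in Hnrnpr-/- motoneurons, and the fit of the groups compared only gave 3 in Hnrnpr-/- motoneurons. Nefh passed there with DESeq2 at its default settings (adjusted p = 0.0300), with shrinkage (0.0297) and with the replicate block over all groups (log2 fold change -2.39, adjusted p = 0.0187). The replicate block gave 6 genes in each genotype and 0 in the 3 genotype tests, and changed no other call of the 8 genes. The related genes that passed numbered 33 to 43, against 40. DESeq2 called 5 genes for the genotype in axons, against 2 in edgeR, none of them a filament gene. Library totals in place of TMM moved the median log2 fold change of all genes by 0.15 in the +/+ and by 0.12 in the Hnrnpr-/- compartment comparison, and changed no direction there. Without division by length the Nefh share of the triplet moved to 4.21% in +/+ somatodendritic and 3.67% in +/+ axonal libraries.

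Values that did not pass changed sign in places, and the cause was not tested. Prph in the +/+ compartment comparison was -0.21 without the 3 axonal libraries lowest in pan-neuronal markers, -0.0046 with the block within each genotype and -0.21 to 0.49 with 1 library left out, where Gfap in the Hnrnpr-/- comparison was -0.99 to 0.74. The somatodendritic genotype difference of Nefm was 0.0031 with library totals, 0.0020 without a filter, 0.0037 with at least 10 counts, 0.0021 with the groups compared only and 0.0053 without the 3 axonal libraries, and that of Nefl was -0.010 with the replicate block. With 1 library left out it was -0.033 to 0.25 for Nefl, -0.19 to 0.19 for Nefm, -0.51 to 0.091 for Nefh, -0.12 to 0.066 for Ina and -0.12 to 0.36 for Nes. In axons the replicate block gave -0.096 for Nefl, -0.12 for Nefh and -0.13 for Ina, and Gfap was -0.29 without the 3 libraries. With 1 library left out the axonal difference was -0.87 to 0.71 for Nefl, -0.57 to 0.82 for Nefm, -0.78 to 0.90 for Nefh, -0.76 to 0.53 for Ina, -0.58 to 0.40 for Prph, -0.27 to 0.36 for Vim, -0.45 to 0.19 for Nes and -0.34 to 1.23 for Gfap. The difference between compartments was -0.086 for Nefl and -0.067 for Ina with the replicate block, and -0.51 for Nefl, -0.19 for Nefm, -0.35 for Nefh and -0.31 for Ina with the block within each genotype. With 1 library left out it was -0.95 to 0.60 for Nefl, -0.56 to 0.81 for Nefm, -0.62 to 1.06 for Nefh, -0.74 to 0.54 for Ina, -0.63 to 0.036 for Vim and -0.54 to 0.10 for Nes.

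Depth limited Prph most, at 16 to 90 counts per library, and Nefh in Hnrnpr-/- axonal replicates 3 and 4, at 62 and 52 counts. With 4 libraries a group, genotype differences within the axonal intervals were not excluded, and the smallest detectable difference was not tested.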
